A study of Mus musculus with 2 samples.

Results

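Interleukins and interleukin receptors were examined on arrays of perigonadal white adipose tissue (WAT) from female mice, PeriA Tg and WT. Members were all genes whose symbol is Il followed by a number, read from probe sets that the platform annotation gives to a single symbol. This rule, which uses no measured value, found 73 of the 18193 genes on the arrays, with 115 probe sets. By name, 36 are receptor subunits, 35 are ligands, antagonists or binding proteins, and the other 2 are *Il4i1*, an amino acid oxidase, and *Il1bos*, an antisense transcript of *Il1b*. A further 11 symbols of this form in the RefSeq gene table, among them *Il1rl1*, *Il2rg*, *Il11ra1*, *Il17f*, *Il22* and *Il27*, had no probe set with a single symbol and were not analysed here.

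PeriA Tg mice were heterozygous for human perilipin A under the aP2 promoter/enhancer, a transgene made for adipocytes. The gene that gave this promoter, *Fabp4*, is also known to be active in macrophages. WT mice were littermates without the transgene. Both genotypes were on C57BL/6, received a HFD (60% of calories as fat) during 25 weeks and were 30 weeks old at harvest. Food was withdrawn overnight before harvest. There were 2 arrays, 1 for each genotype, and each received 1 pool of RNA from 3 mice. The values below therefore carry no error over mice, no difference between the genotypes was tested, and effects of the transgene, of the pools and of the hybridisations cannot be told apart.

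Interleukins are secreted proteins by which leukocytes, stromal cells and adipocytes signal to each other. The IL-1 family (IL-1, IL-18, IL-33, IL-36) acts through paired receptors with an intracellular TIR domain, the adaptor MyD88 and the IRAK kinases, and is held in check by receptor antagonists, decoy receptors and binding proteins. Most other interleukins act through receptor subunits that bind JAK kinases and STAT transcription factors, and they fall into families by the subunit they share, such as the common gamma chain or gp130. In adipose tissue, IL-1β and IL-6 are known for their link to obesity, while IL-33, IL-4 and IL-13 are known for type 2 immunity, which keeps eosinophils and alternatively activated macrophages in lean fat.

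Signals are the deposited MAS5 values on a linear scale, and the signal log ratio is log2 (Signal of Tg/Signal of WT), so that 1 is a 2-fold higher signal in Tg WAT. A gene was read from its brightest probe set. Over both arrays together, the median signal was 98.2. Of the 73 members, 27 had signals of at least this median on both arrays, 1 on the Tg array alone, 6 on the WT array alone and 39 on neither. To count directions, genes were kept when the mean log2 signal of both arrays was at least log2 of 98.2. This kept 29 members (39.7%), against 61.4% of all genes.

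Of these 29 genes, 5 (17.2%) exceeded a signal log ratio of 0.3 and 11 (37.9%) fell below -0.3, the threshold of the study's methods. The same counts over all 11170 genes kept were 15.9% over 0.3 and 15.7% under -0.3, so that the share of higher members was near the background. The median signal log ratio was -0.08 for the members and 0.02 for all genes kept. Past a 2-fold difference, none of the 29 was over 1 and 3 (10.3%) were under -1, against 0.573% and 1.18% of all genes. The counts shift with scaling. After median centring of the arrays, 7 members (24.1%) were over 0.3 and 9 (31%) under -0.3, against 24.3% and 11.7% of all genes. The median of all genes kept was then 0.11 in place of 0.02, and 2 members were under -1. Reading a gene as the median of its probe sets moved the count under -0.3 more, to 17 of 29. Among the 19 receptor subunits kept, 2 were over 0.3 and 8 under -0.3. Ligands, antagonists and binding proteins were divided evenly, with 3 over 0.3 and 3 under -0.3 of 10.

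**Figure D1:**
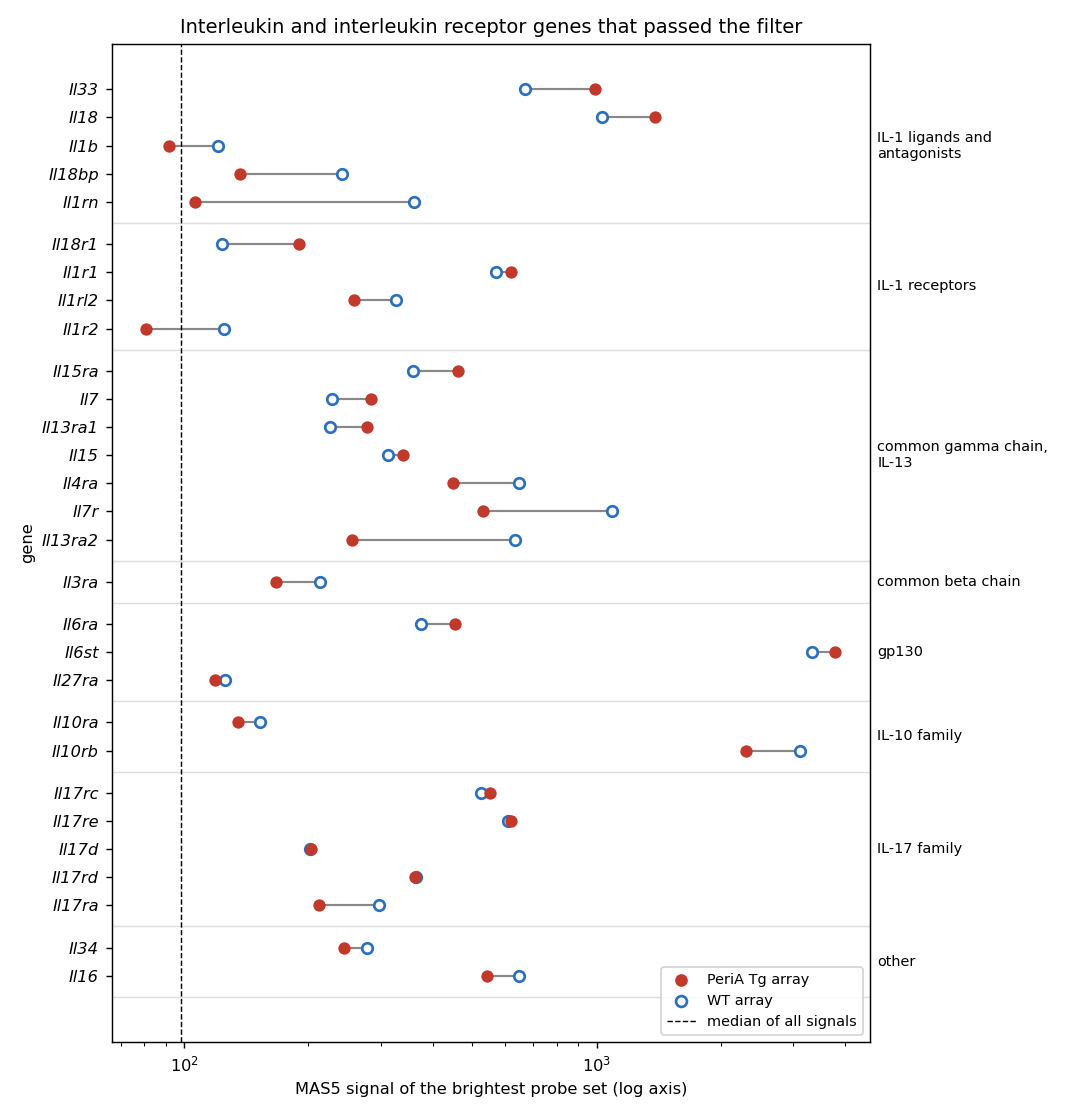
MAS5 signals (log axis) of the 29 interleukin and receptor genes whose mean log2 signal passed the filter, with 1 array of pooled RNA per genotype, grouped by family; filled red circles are the PeriA Tg array, open blue circles the WT array and the dashed line the median of all signals, 98.2. *Il1rn*, *Il13ra2* and *Il7r* show the widest gaps with the Tg array lower, whereas *Il33*, *Il18* and *Il18r1* had the higher signal on the Tg array.

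In the IL-1 family, the antagonist and the ligand *Il1b* were dimmer on the Tg array, and *Il33* and *Il18* were brighter. *Il1rn*, which encodes the IL-1 receptor antagonist, had a signal of 106.1 in Tg and 360.7 in WT, a signal log ratio of -1.77 and the lowest of the 29. Its other 2 probe sets also had lower Tg signals, with 79.8 in Tg and 126.4 in WT for the one that passed the filter, and 19.1 in Tg and 221.9 in WT for the one that did not. *Il1b*, the pro-inflammatory ligand that the antagonist competes with, had 92.0 in Tg and 120.6 in WT (-0.39), close to the median signal. The other IL-1 ligand *Il1a* was under the filter, with 14.9 in Tg and 26.1 in WT. *Il1r1*, the signalling receptor, had 620.9 in Tg and 569.6 in WT (0.12). *Il1r2*, the decoy receptor that binds IL-1 without signalling, had 80.7 in Tg and 125.0 in WT (-0.63). *Il1b* and *Il1r2* were above the median signal on the WT array alone, so that their differences rest on a dim Tg signal.

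The *Il1rn* and *Il7r* promoters are shown because these genes had the lowest signal log ratios among members in which more than 1 probe set passed the filter and all of these were under -0.3. Each window is RefSeq sequence of build GRCm38.p6, from 250 bases before to 50 bases after a transcript start, 5′ to 3′ along the gene. *Il7r* has 1 listed start, on the minus strand (chr15:9529827-9530126), and *Il1rn* has 3, of which the one furthest downstream on the plus strand is given (chr2:24345121-24345420). Capitals mark a match to the STAT motif TTCNNNGAA in *Il7r* and to the NF-kB motif GGNNTTTCC in *Il1rn*. The same *Il1rn* match lies in the overlapping window of another start (chr2:24345041-24345340). The window of the start furthest upstream (chr2:24336610-24336909) holds no match.
Il7r: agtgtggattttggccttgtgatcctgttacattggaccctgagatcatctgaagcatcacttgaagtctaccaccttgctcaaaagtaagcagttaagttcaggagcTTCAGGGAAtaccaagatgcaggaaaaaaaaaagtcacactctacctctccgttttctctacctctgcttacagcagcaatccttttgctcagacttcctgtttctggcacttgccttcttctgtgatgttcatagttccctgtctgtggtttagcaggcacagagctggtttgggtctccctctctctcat
Il1rn: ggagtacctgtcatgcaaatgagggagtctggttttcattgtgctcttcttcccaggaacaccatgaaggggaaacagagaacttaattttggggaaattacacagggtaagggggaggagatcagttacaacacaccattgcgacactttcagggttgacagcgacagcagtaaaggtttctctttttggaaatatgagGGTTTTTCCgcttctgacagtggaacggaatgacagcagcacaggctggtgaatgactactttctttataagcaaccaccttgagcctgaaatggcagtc

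Both strands of each window were searched for these motifs and for the PU.1 motif GAGGAA, and no match of different motifs overlapped in the windows shown. Over all 32851 windows of this length in the RefSeq table, 8.3% hold the STAT motif, 5.82% the NF-kB motif and 28.3% the PU.1 motif. Of the 57 members with at least 1 window, 10 (17.5%) had the STAT motif, 10 (17.5%) the NF-kB motif and 21 (36.8%) the PU.1 motif, against 9.55%, 6.62% and 31.3% of all 27025 genes in that table. A match describes letters in a window and is neither a binding site nor a cause of a signal.

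The components of the IL-18 system differed in direction. *Il18*, a ligand that the inflammasome activates, had 1384.9 in Tg and 1033.3 in WT (0.42). *Il18r1*, its ligand-binding receptor subunit, had 189.4 in Tg and 123.7 in WT (0.61), the highest signal log ratio of the 29. *Il18bp*, the soluble protein that neutralises IL-18, had 136.2 in Tg and 241.7 in WT (-0.83). Ligand and receptor were thus higher and the binding protein lower in Tg WAT, each read from 1 probe set. The accessory subunit *Il18rap* was under the filter, and its 2 probe sets were opposed: 89.4 in Tg and 55.8 in WT on the brighter, and 2.1 in Tg and 55.0 in WT on the dimmer.

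*Il33*, an alarmin released by stromal, endothelial and mesothelial cells, had 988.9 in Tg and 669.6 in WT (0.56), from its only probe set. Markers of mesothelium had summed signals of 6961 in Tg and 6085 in WT over 5 of 5 genes. Their median signal log ratio was 0.22, and only *Wt1* (0.70) was over 0.3. The 5 fibroblast markers had a median of 0.14 and the 5 endothelial markers -0.08. The part of these cell types in the *Il33* signal was not tested. The IL-36 receptor *Il1rl2* had 257.6 in Tg and 325.6 in WT (-0.34), and the IL-36 genes *Il1f5*, *Il1f6*, *Il1f8* and *Il1f9* were under the filter.

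**Figure D2:**
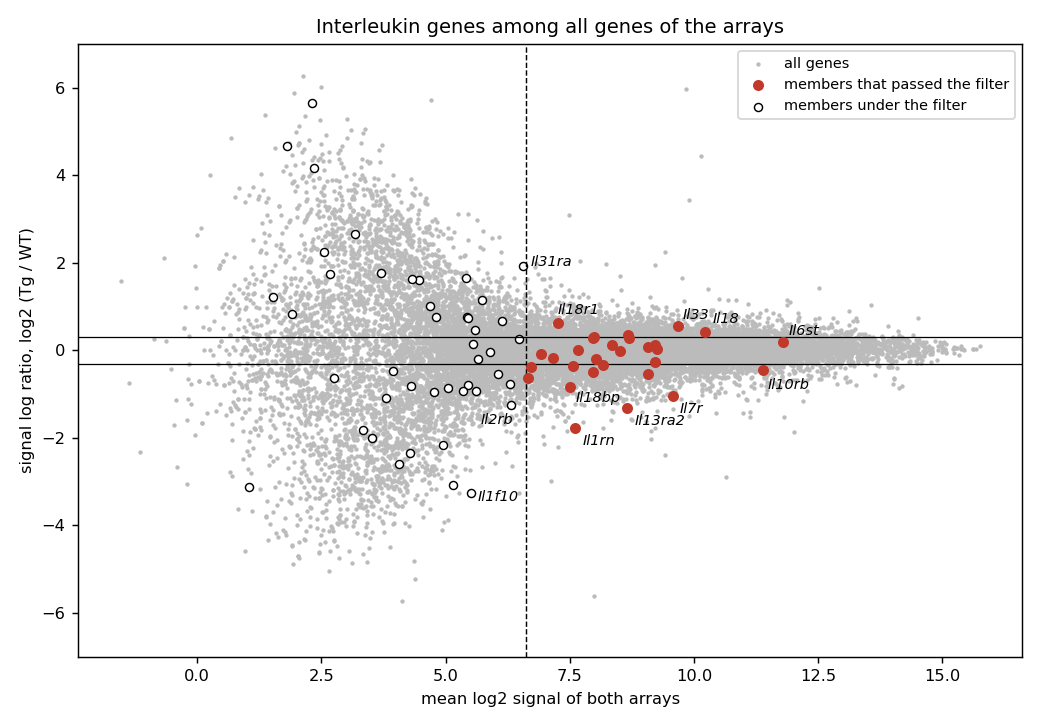
Signal log ratio, log2 (Tg/WT), plotted on mean log2 signal for all 18193 genes (grey), the 29 members that passed the filter (red) and the 44 that did not (open circles), 1 point per gene; solid lines mark 0.3 and -0.3, and the dashed line is the filter. Scatter widens to the left of the filter, where members lie between -3.25 and 5.65, whereas the 29 to its right lie between -1.77 and 0.61.

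Among genes of the common gamma chain cytokines and of IL-13, 7 of 16 passed the filter. Of these, 2 (28.6%) were over 0.3 and 3 (42.9%) under -0.3, against 15.9% and 15.7% of all genes kept. *Il7r*, the IL-7 receptor of lymphocytes, had 528.8 in Tg and 1090.0 in WT (-1.04). Its other probe set had 136.5 in Tg and 316.5 in WT (-1.21), so that both read a difference of more than 2-fold in the deposited signals. After median centring, the brighter probe set had -0.96. Its ligand *Il7*, a stromal cytokine, had 283.4 in Tg and 228.0 in WT (0.31) on the brighter probe set, and 29.7 in Tg and 51.1 in WT (-0.78) on the dimmer one, which was under the filter. Thus the receptor was lower on every probe set, whereas the ligand has no settled direction.

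*Il4ra*, the chain shared by the receptors for IL-4 and IL-13, had 449.5 in Tg and 648.4 in WT (-0.53). Its 2 dimmer probe sets had -0.29 and -1.50, the second of them under the filter. *Il13ra2*, a high-affinity receptor for IL-13 known mainly as a decoy, had 255.7 in Tg and 634.5 in WT on its only probe set (-1.31). *Il13ra1*, the chain that pairs with *Il4ra*, had 277.1 in Tg and 226.2 in WT (0.29) on the brightest probe set, whereas its 4 others lay between -0.83 and -0.10. The ligands themselves were far under the median signal, with 24.0 in Tg and 7.0 in WT for *Il4*, and 38.4 in Tg and 12.6 in WT for *Il13*.

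IL-15 supports NK cells and memory T cells, and its receptor alpha chain presents it to neighbouring cells. *Il15* had 339.1 in Tg and 311.1 in WT (0.12). *Il15ra* had 461.3 in Tg and 359.4 in WT (0.36), and its second probe set had 253.5 in Tg and 232.3 in WT (0.13), so that both were on the higher side and 1 was past the threshold. *Il2rb*, which IL-2 and IL-15 share, was just under the filter with 51.8 in Tg and 122.3 in WT (-1.24), and its other probe set had -0.39. Of the common beta chain family, *Il3ra* alone passed, with 166.9 in Tg and 212.9 in WT (-0.35). The subunits that pair with it had 1468.6 in Tg and 1399.4 in WT for *Csf2rb* (0.07), and 399.9 in Tg and 541.4 in WT for *Csf2rb2* (-0.44). *Il5*, the eosinophil growth factor, was under the filter with 21.5 in Tg and 1.2 in WT, and these 2 signals are both too low to give a direction.

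In the gp130 family, 3 of 7 genes passed the filter, all of them receptors, and none was past the threshold on its brightest probe set. *Il6* had 13.1 in Tg and 18.1 in WT, and *Il11* had 79.8 in Tg and 35.7 in WT. *Il6ra*, the IL-6 binding chain, had 454.6 in Tg and 375.2 in WT (0.28) on one probe set, but 84.8 in Tg and 202.5 in WT (-1.26) on the other that passed. *Il6st* encodes gp130, the signalling chain that most of the family shares. Its brightest probe set had 3796.9 in Tg and 3327.8 in WT (0.19), and the next had 1979.5 in Tg and 2221.2 in WT (-0.17). The 2 dimmer ones had 350.9 in Tg and 991.4 in WT (-1.50), and 56.3 in Tg and 209.8 in WT (-1.90). Readings of *Il6st* thus ran from a slightly higher signal to one several-fold lower in Tg WAT. The gp130 partner *Lifr* had -0.06 and *Osmr* 0.22. *Il27ra* had 118.6 in Tg and 125.3 in WT (-0.08), and *Il31ra*, whose brighter probe set was just under the filter, had 182.4 in Tg and 48.3 in WT (1.92), with 83.7 in Tg and 57.2 in WT (0.55) on the other.

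**Figure D3:**
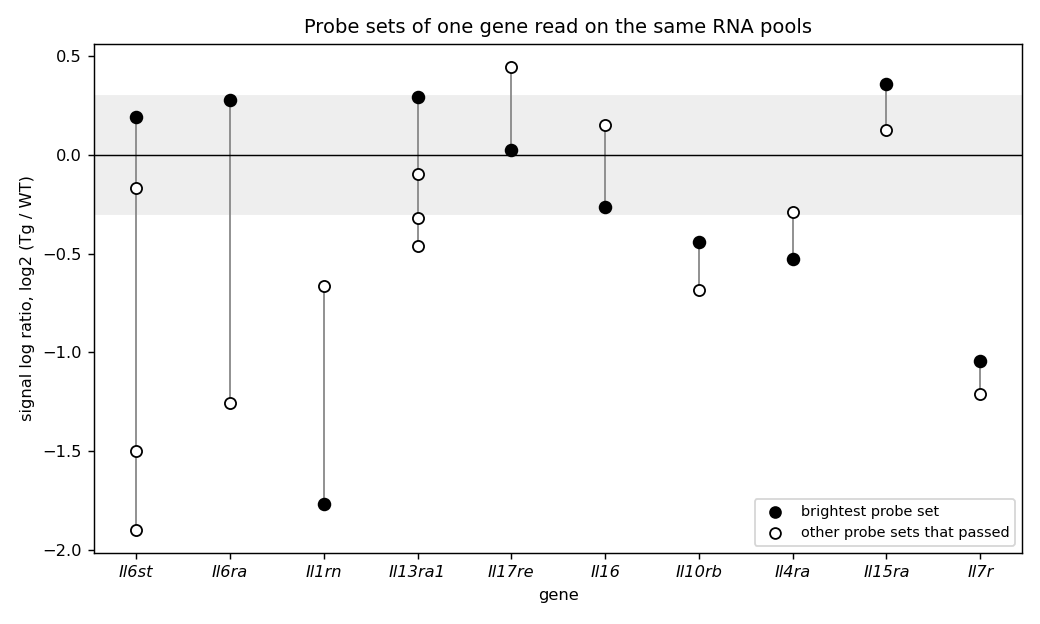
Signal log ratios, log2 (Tg/WT), of every probe set that passed the filter, for the 10 members with more than 1 such probe set; filled circles are the brightest probe set of each gene, open circles the others, and the grey band covers -0.3 to 0.3. *Il6st* spans 2.09 and *Il6ra* 1.53 on this scale, while the 2 probe sets of *Il7r* lie 0.17 apart.

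Probe sets of 1 gene read the same RNA pools, so that their spread covers neither mice nor hybridisations. In the 10 members for which 2 or more probe sets passed, these ratios had a pooled SD of 0.62, against 0.34 in 4956 such genes in all. In 6 of the 10 members all passing probe sets had the same sign, against 2440 of the 4956 genes. In 3, *Il1rn*, *Il7r* and *Il10rb*, all were under -0.3, against 265 of the 4956. None had all over 0.3, against 204 of the 4956. Of the 14 dimmer probe sets, 10 (71.4%) had a lower signal log ratio than the brightest of their gene, against 58.9% of 8183 dimmer probe sets over all genes. Beside this stands a difference in control probe sets: for the 8 pairs of poly-A control probe sets, which repeat the same few control transcripts, the 5′ minus the 3′ signal log ratio lay between -0.80 and -0.22, with a median of -0.55, and for the 8 pairs of hybridisation controls it lay between -0.15 and 0.31. For the sample's own RNA it was -0.33 for *Gapdh*, -0.25 for *Actb*, -0.16 for *Pcx* and -1.67 for the transferrin receptor *Tfrc*, against 0.31 for 18S ribosomal RNA. A further control pair, TrpnX, counted in neither set of controls, had 0.44. Where the probes of *Il6st* and *Il6ra* lie along their transcripts was not analysed here, and the part of this difference in their spread was not tested.

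In the IL-10 family, *Il10rb*, a receptor subunit shared by IL-10, IL-22 and the lambda interferons, had 2300.1 in Tg and 3124.0 in WT (-0.44), and its second probe set had 88.1 in Tg and 141.7 in WT (-0.69). *Il10ra*, the chain specific for IL-10, had 134.9 in Tg and 152.5 in WT (-0.18). The anti-inflammatory ligand *Il10* itself was under the filter, with 33.2 in Tg and 57.1 in WT. *Il20* had 12.3 in Tg and 103.6 in WT, so that only the WT signal was above the median. No member of the IL-12 family passed the filter.

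Of the IL-17 family, the common receptor chain *Il17ra* was the only one of the 5 genes kept that was past the threshold on its brightest probe set, with 211.6 in Tg and 296.7 in WT (-0.49), and 45.8 in Tg and 125.6 in WT (-1.46) on its other probe set, which was under the filter. The remaining receptor genes kept were within 0.10 of 0 on their brightest probe sets: *Il17rc* (0.07), *Il17re* (0.03) and *Il17rd* (-0.01). The second probe set of *Il17re* had 655.0 in Tg and 481.5 in WT (0.44). *Il17d* had nearly the same signal on both arrays, with 202.3 in Tg and 202.0 in WT. *Il17a*, the T cell cytokine, had 29.4 in Tg and 55.9 in WT, and *Il25*, an inducer of type 2 responses, had 12.9 in Tg and 2.7 in WT, all under the median.

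Outside these families, *Il16*, a chemoattractant for CD4+ cells, had 541.5 in Tg and 650.0 in WT (-0.26), with 0.15 on its other passing probe set and 1.83 and 2.69 on 2 that were under the filter. *Il34*, a ligand of the macrophage growth factor receptor encoded by *Csf1r*, had 244.4 in Tg and 278.1 in WT (-0.19). *Csf1r* had 7708.4 in Tg and 8612.0 in WT (-0.16). None of these was past the threshold.

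Of the 44 members under the filter, 25 were ligands, antagonists or binding proteins and 17 were receptor subunits. The higher of their 2 signals had a median of 42.6, and for 29 of the 44 it was under 56.9, the 40th percentile of all signals. Of these 44 genes, 20 were over 0.3 and 20 under -0.3, which are 45.5% each. Among all 7023 genes under the filter the shares were 38.3% and 39.8%. Of the 44, 4 had a 2-fold difference with 1 signal above the median: *Il31ra*, *Il2rb*, *Il20* and *Il1f10*, an IL-1 family ligand with 14.7 in Tg and 139.6 in WT. These 4 were bound to differ, since they reached the median through the array on which they were higher. With signals under 56.9 raised to that value, *Il31ra* had 1.68, *Il2rb* -1.10, *Il20* -0.86 and *Il1f10* -1.29.

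The genes that carry interleukin signals were on both sides of 0. Over all genes kept, 15.9% were over 0.3 and 15.7% under -0.3. Of 23 JAK, STAT and SOCS genes, 22 had a value and 20 passed the filter. Of these 20, 2 were over 0.3 and 2 under -0.3 (10% each), with a median of 0.01. *Socs3*, a feedback inhibitor of gp130 and other cytokine receptors, had 569.2 in Tg and 396.6 in WT (0.52), followed by *Socs7* (0.43) and *Pias1* (0.24). The lowest were *Ptpn6*, a phosphatase of leukocytes (-0.38), *Socs2* (-0.35) and *Socs6* (-0.22). *Stat3* and *Stat6*, the main factors downstream of gp130 and of the IL-4 receptor, had 0.01 and -0.11. Of 20 adaptors and effectors of IL-1 and IL-17 signalling, 18 had a value and all 18 passed. Of these, 5 (27.8%) were over 0.3 and 4 (22.2%) under -0.3, with a median of 0.01. The ubiquitin ligase *Traf6* had 286.1 in Tg and 148.2 in WT (0.95). The kinase *Irak1* had 1531.7 in Tg and 988.0 in WT (0.63), and *Rela*, a subunit of NF-kB, had 0.39. *Traf6* has 5 probe sets and *Irak1* has 4. For these and all other genes of the lists, only the brightest probe set was read here. The 3 lowest were the inflammasome genes *Nlrp3* (-0.51), *Pycard* (-0.49) and *Casp1* (-0.40). Among 20 ligands and subunits of these receptor families with other names, 16 had a value and 12 passed. Of these 12, 2 (16.7%) lay past the threshold in each direction. *Ctf1* (0.46) and *Clcf1* (0.32) were over 0.3, and *Csf2ra* (-0.96) and *Csf2rb2* (-0.44) under -0.3. *Osmr* was the third highest and *Crlf2* (-0.28) the third lowest.

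**Figure D4:**
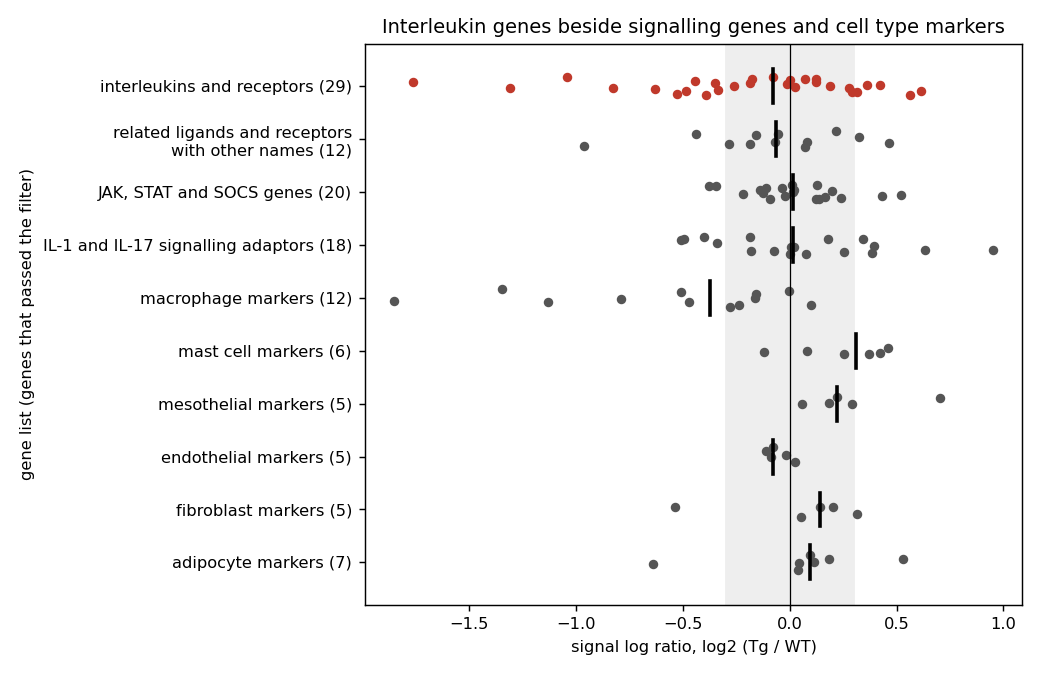
Signal log ratios, log2 (Tg/WT), of genes that passed the filter in each list, 1 point per gene, with the number of genes in parentheses; black bars are medians, the grey band covers -0.3 to 0.3, and the height of a point within its list is arbitrary. The members extend further below the band than above it. So do the macrophage markers (median -0.38), the related ligands and receptors (-0.06), the fibroblast markers (0.14) and the adipocyte markers (0.09).

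Many of the receptor genes above are known to be expressed in leukocytes, and in whole tissue, fewer cells of a type and less RNA per cell cannot be told apart. All 12 macrophage markers passed the filter, and their summed signal was 55799 in Tg and 70766 in WT. Of these, 6 (50%) were under -0.3 and none was over 0.3, against 15.7% and 15.9% of all genes kept. *Trem2* had 294.5 in Tg and 1062.1 in WT (-1.85), *Itgax* -1.35 and *Cd68* -1.13, while *Mrc1* had 0.00 and *Cd163* 0.10. T cell markers had a summed signal of 586.7 in Tg and 772.2 in WT over 7 of 9 genes, of which 3 passed the filter with a median of -0.38. B cell markers had 1400 in Tg and 1632 in WT over 4 of 5 genes. Neutrophil markers had 1121 in Tg and 2606 in WT over 5 of 6 genes, a sum carried by *S100a8* with 847.8 in Tg and 2294.3 in WT (-1.44). *Csf3r*, under the filter, had 109.1 in Tg and 68.4 in WT (0.67). Mast cell markers stood on the other side, with 3010 in Tg and 2590 in WT over 7 of 7 genes. The 6 that passed the filter had a median of 0.31, and *Ms4a2*, under the filter, had 58.4 in Tg and 81.0 in WT (-0.47). Of the eosinophil markers, *Ccr3*, *Epx*, *Prg2* and *Siglecf* were all under the filter. The part of these markers in the values of *Il1rn*, *Il7r*, *Il4ra*, *Il10rb* and the other members was not tested. Adipocyte markers were far above the median signal on both arrays, with 43803 in Tg and 41052 in WT for *Adipoq* and a median signal log ratio of 0.09 over 7 of 8 genes.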

How the data were processed

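Total RNA of perigonadal WAT was pooled from 3 mice per genotype, labelled and hybridised to 1 Affymetrix mouse genome array each. The authors made the deposited intensity values (MAS5 signals, linear scale, 1 per probe set) with GeneChip Operating Software ver1.4, and MAS5 is also the tool in the submitters' processing notes. Each array had a 2% trimmed mean of 500.0, and the median signal was 95.4 in Tg and 101.1 in WT. MAS5 subtracts mismatch probes, so that dim signals are unstable and their ratios can be large. Of 45101 probe sets, 34945 had 1 symbol in the platform annotation, 932 had several, 9160 had none and 64 were controls.

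The signal log ratio was computed from the deposited signals with no pseudocount. The methods' Present calls were not analysed here, and the filter on mean log2 signal, which favours neither genotype, stands in their place. No test was possible with 1 array for each genotype, and the number of arrays limits the precision. Named were all members that passed the filter, other members with a 2-fold difference and a signal above the median, and a set of interleukins prominent in adipose tissue. *Il11*, *Il18rap* and *Il1f5* to *Il1f9* were added after their values were seen. Members and lists were chosen with earlier results of these data known. Alternatives were median centring, quantile normalization, loess (span 0.3), a pseudocount of 25.1, a floor of 56.9, other filters (a stricter one at 470.5) and other probe sets of a gene. The code for list counts and medians was run on permuted signal log ratios with a known shift added. This checks its arithmetic alone. Python 3.11.15, numpy 2.4.6, pandas 2.3.3, statsmodels 0.14.6 and matplotlib 3.10.9 were used.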

Additional observations from a re-analysis of the deposited data

How the results depend on the processing

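No paired analysis was possible because each genotype has 1 array. Across median centring, quantile normalization, loess, pseudocount and floor, 13 of the 16 members past 0.3 or -0.3 stayed past the threshold. *Il3ra*, *Il1rl2* and *Il7* did not in at least 1 of these settings. All 16 kept their direction, but a pseudocount or floor on both arrays cannot reverse a sign. The scalings moved these ratios little, so that the direction kept is no test of the other probe sets of a gene. Without a filter, 25 of 73 members (34.2%) were over 0.3 and 31 (42.5%) under -0.3, against 24.6% and 25% of all genes, and 14 were over 1 and 13 under -1 (19.2% and 17.8%), against 8.46% and 8.9%. A filter on the higher signal kept 34 members, with 1 over 1 and 6 under -1, and 44.1% of members were under -0.3, against 16.9% of all genes. Of these members, 6 reached the median on the WT array alone and 1 on the Tg array alone. Such members were kept through the array on which they were higher, so that their direction came with the filter. A filter on both signals kept 27, with 5 over 0.3 and 9 under -0.3 (33.3%, against 14.6%). The stricter filter kept 10, with 2 over 0.3, 3 under -0.3 (30%, against 10.6%) and 1 under -1. When a gene was read as the median of its probe sets, 17 of 29 members (58.6%) were under -0.3, against 20.3% of all genes, and 5 were under -1. With the brightest probe set without a suffix, 5 of 22 were over 0.3 and 7 under -0.3 (31.8%, against 16.6%). On the second-brightest probe set, 1 of 10 was over 0.3 and 5 were under -0.3 (50%, against 23.6%). The median signal log ratio of the members, -0.08 as reported, had no stable sign: it was -0.39 for the median of probe sets, -0.30 on the second-brightest and -0.01 with the filter on both signals, but 0.05 with the stricter filter and 0.08 without suffixed probe sets. *Il7* changed sign, with -0.23 for the median of its probe sets and -0.78 on the second-brightest, and *Il16* had 0.99 for the median of its probe sets in place of -0.26. All these probe sets read the same pools, and the cause of these shifts was not tested.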

Other observations

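Outside the single-symbol probe sets, 3 probe sets were annotated to several genes that include an interleukin name and were used for no gene. One shared by *Ntan1* and *Il2* had a signal of 1234 in Tg and 1718.4 in WT, whereas the probe set of *Il2* alone had 14.6 in Tg and 65.0 in WT. One shared by *Il4i1* and *Il4i1b* had 96.1 in Tg and 94.4 in WT, and one shared by *Il22* and *Iltifb* had 3.0 in Tg and 2.1 in WT.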
